A study of Mus musculus with 12 samples.

Results

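The translation initiation factors (eIF) and elongation factors (eEF), with the enzymes named after them, were followed in RNA sequencing of the mouse aorta after infusion of porcine pancreatic elastase (PPE). Members were all genes whose mouse symbol begins with Eif or Eef and a number, without the eIF2 alpha kinases and without pseudogenes. Of 67 such symbols, 55 reached a mean of at least 1 CPM (counts per 1000000 counts of a library) in the RefSeq accession with most counts, out of 11719 genes that reached the same level. Just inside that minimum lay Eef1d at 1.47 CPM and Eif4g3 at 1.48 CPM, and just outside lay Eif2d at 0.907 CPM and Eif4g1 at 0.906 CPM. All 55 members passed the filter on low counts and were tested.

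The study used 12 male C57BL/6J mice aged 10 weeks, in 3 groups of 4. Control mice received saline in the infrarenal segment of the aorta and the aorta was collected after 7 days. The other groups received PPE in the same segment, and the aorta was collected after 7 days (PPE week 1) or after 14 days (PPE week 2). Elastase breaks down the elastic fibres of the vessel wall, and this infusion is a model of aneurysm formation. Saline was given with the 7-day collection only, so that in the PPE week 2 comparison treatment and time since infusion cannot be told apart.

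Protein synthesis begins when eIF2 brings the initiator tRNA to the small ribosomal subunit, eIF3 and the scanning factors hold that complex together, and eIF4F binds the capped end of the mRNA. Once the start codon is found, eIF5B joins the large subunit. The elongation factor eEF1A then delivers each aminoacyl-tRNA, the eEF1B subunits recharge eEF1A with GTP, and eEF2 moves the ribosome along by a codon. Many mRNAs of ribosomal proteins and elongation factors begin with a C followed by a run of C and T (a 5′ terminal oligopyrimidine tract, or TOP), through which growth signals control how well they are translated.

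Total counts per library lay between 8343313 and 12269131. A single accession, NR_046233, a precursor of ribosomal RNA, held 41.3% of the counts in saline, 30.4% in PPE week 1 and 20.4% in PPE week 2 on average. Both PPE groups differed from saline in this share (two-sided exact permutation test, p = 0.0286 for each, the smallest p that 4 against 4 allows), and PPE week 2 did not pass against PPE week 1 (exact p = 0.0571). Levels are given as CPM scaled by TMM, a method that takes the bulk of genes as unchanged. The 8 smooth muscle markers that check the tissue did not stand at one level. Their sums were 5771 to 7635 CPM in saline, 1640 to 3069 CPM in PPE week 1 and 4789 to 10835 CPM in PPE week 2. Single markers could be absent, with Myocd at 0 CPM in PPE week 1 replicate 1 and Smtn at 0 CPM in PPE week 2 replicate 4. Of the 8 markers, 6 were called lower at week 1 and 6 higher in PPE week 2 than in PPE week 1. In bulk tissue, fewer cells of a type and less RNA per cell cannot be told apart.

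The members differed widely in level. Per kilobase of transcript, Eef1a1 stood highest with a mean over all 12 libraries of 923 CPM per kb, followed by Eef2 with 242, Eif3a with 103 and Eef1b2 with 80.3 CPM per kb. The 8 elongation factors together held a summed mean of 2662 CPM, the 12 eIF3 subunits 1274 CPM, and the 9 scanning and joining factors 486 CPM. The 9 eIF4F subunits and cofactors summed to 343 CPM, the 8 eIF2 and eIF2B subunits to 229 CPM, the 3 eIF4E inhibitors to 91.1 CPM and the 6 enzymes that modify elongation factors to 46.1 CPM. Genes were placed in these roles by symbol, not by the part each protein plays. Eif4a3, Eif4a3l1 and Eif4e2 were thus counted with eIF4F, and Eef1e1 with the elongation factors. Genes with several accessions were rarely among the members: 9 of the 55 had more than 1, against 10 of the 12 symbols left out. The table holds a count per accession, and how reads shared between a gene's isoforms were counted is not given, so the levels of such genes may be too low. Among those left out, Eif4a1 had a count of 0, Eif5a 16 counts in its leading accession, Eif4e 47, Eef2k 72 and Eif4g1 112 over all 12 libraries, each with 2 to 9 accessions. The cap-binding protein eIF4E, its scaffold eIF4G1 and the helicase eIF4A1 were therefore not analysed here.

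The start of the mRNA is shown for 9 members, chosen as those called below for which the promoter table had an entry, the second elongation factor Eef2, and examples with a pyrimidine run. Each sequence is taken from RefSeq (GRCm38.p6) and holds 10 bases before the annotated start and 20 bases from it on, on the strand of the transcript. Capitals mark a C followed by at least 5 further letters that are C or T, searched on that strand only.
Eef1a1 (chr9:78481705-78481734, minus strand): ctccgCCCTCTTCCCgagggtgggggagaa
Eef1b2 (chr1:63176821-63176850, plus strand): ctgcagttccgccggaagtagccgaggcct
Eef2 (chr10:81176621-81176650, plus strand): aaggccgggcgttgacgtcagcggtctctt
Eif3a (chr19:60790674-60790703, minus strand): ctcgggcggcggcgctgccgccgcgaggga
Eif3c (chr7:126566347-126566376, minus strand): ctgctcagagggactcggcagcttagctgg
Eif5b (chr1:37998000-37998029, plus strand): ctgggttcccacctggccggcggctctact
Eif2s3x (chrX:94212632-94212661, minus strand): gagcattttCCTTTTCTCTCCgagcaagat
Eif3f (chr7:108934405-108934434, plus strand): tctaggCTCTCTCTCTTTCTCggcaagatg
Eif3l (chr15:79075213-79075242, plus strand): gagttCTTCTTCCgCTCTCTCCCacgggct
Of the 5 members shown that were called, Eef1a1 held such a run and Eif3a, Eif5b, Eef1b2 and Eif3c did not. A run was present in 12 of the 41 members that the table holds (29.3%), against 6735 of 27025 genes (24.9%). A match is a description of these letters, and a window without one says only that the letters are not there. A run that continued beyond the end of a window could be missed, and the Eef2 window ends on the letters ctctt.

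PPE week 1 and saline were collected on the same day, and no member passed the test between them. At an adjusted p under 0.05 (edgeR quasi-likelihood test, Benjamini-Hochberg over all 12756 accessions tested), 0 of 55 members were called higher and 0 lower, against 3.98% and 3.91% of all features (7.89% in either direction). By an unadjusted p under 0.05, 5 members were higher (9.09%) and 0 lower, where 11.6% and 10.1% of all features were. DESeq2 called 2 members higher (3.64%, beside 6.55% of all features) and limma-voom 1 (1.82%, beside 3.37%), with 0 lower in each. All these shares lay below those of all features. The members' median log2 fold change was -0.03, beside 0.00 over all features. The groups did not overlap for 3 members that were higher (Eef2, Eif3f and Eif6) and for 1 that was lower (Eif3a), where 12.1% and 9.01% of all features did so.

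PPE week 2 differed from saline in 4 members, all lower: Eef1a1, Eif3a, Eif5b and Eef1g. That is 7.27% of the members, against 1.35% of all features called lower, while 0 members were called higher against 1.3% of all features (2.65% in either direction). At an unadjusted p under 0.05, 14 members were lower (25.5%, beside 7.72% of all features) and 3 higher (5.45%, beside 8.84%). Neither DESeq2 nor limma-voom called a member higher, beside 3.23% and 0.862% of all features. The members' median log2 fold change was -0.29, beside 0.05 over all features, and 36 of 55 members lay below 0 (65.5%, beside 46.3% of all features). Groups did not overlap for 8 members that were lower and 4 that were higher, where 4.44% and 4.55% of all features did so.

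Between the PPE groups, 5 members were lower in PPE week 2 than in PPE week 1: Eef1a1, Eif3a, Eef1b2, Eef1g and Eif3c. They make up 9.09% of the members, against 2.82% of all features called lower, while 0 members were called higher against 3.77% of all features (6.59% in either direction). At an unadjusted p under 0.05, 9 members were lower (16.4%, beside 9.87% of all features) and 1 higher (1.82%, beside 10.6%). DESeq2 called 1 higher (Eif4ebp2), beside 6.37% of all features, and limma-voom called 0, beside 3.48%. The median was -0.25, beside 0.02 over all features, and 41 of 55 members lay below 0 (74.5%, beside 48.7% of all features). Groups did not overlap for 9 members that were lower and 2 that were higher, where 8.68% and 7.24% of all features did so. Both PPE week 2 comparisons use the same PPE week 2 libraries, so they are not separate evidence.

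**Figure D1:**
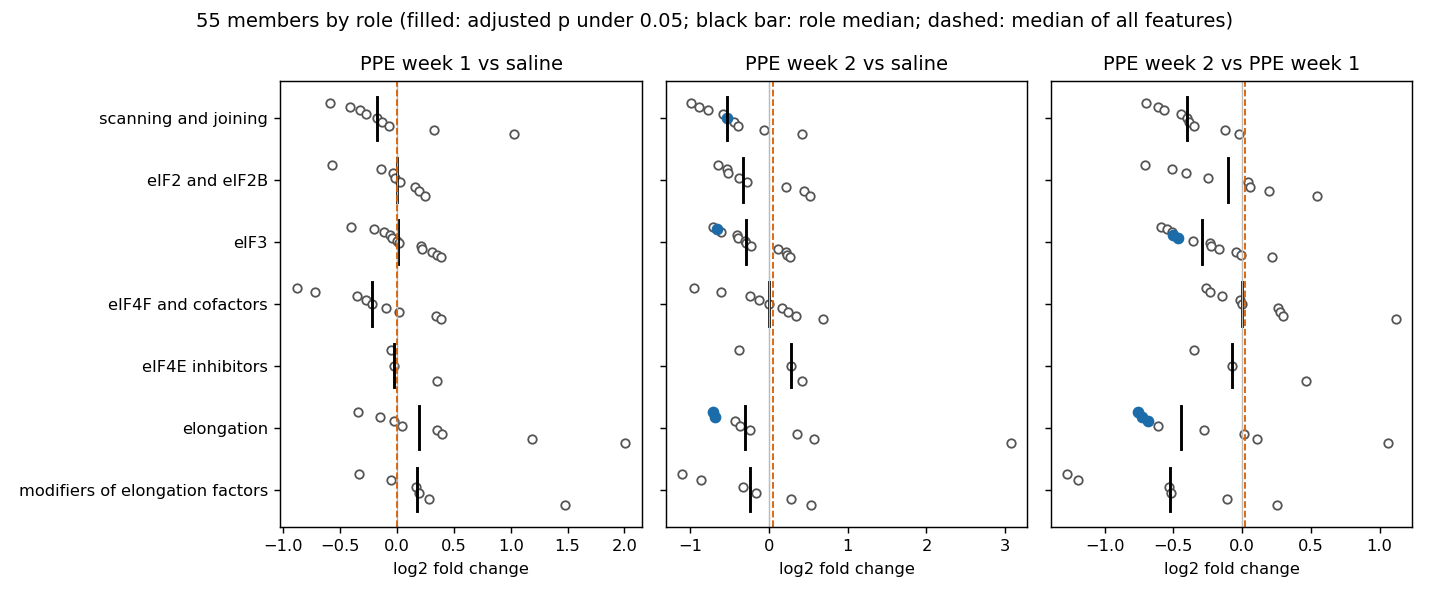
Log2 fold changes of the 55 members in the 3 comparisons (horizontal axis), grouped by role (vertical axis); each point is a member, filled where the adjusted p was under 0.05, with a black bar at the role's median and a dashed line at the median of all features. No point is filled for PPE week 1 against saline, 4 are filled for PPE week 2 against saline and 5 for PPE week 2 against PPE week 1, all of them below 0.

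The members called all stood at 50 CPM or more. Of the 16 members at a mean of 50 CPM or more, a split chosen after the values were seen, 4 were called lower in PPE week 2 against saline, beside 4.31% of all features at that level, and 0 higher, beside 3.31%. In PPE week 2 against PPE week 1, 5 of the 16 were called lower, beside 8.28%, and 0 higher, beside 8.43%. In PPE week 1 against saline 0 of the 16 were called in either direction, beside 10.5% higher and 10.3% lower. The 39 members below 50 CPM gave no call in the PPE week 2 comparisons, where 0.548% of all features below 50 CPM were called lower against saline and 1.34% against PPE week 1, so that 0 of 39 is near the background. They had a median log2 fold change of -0.33 against saline and -0.26 against PPE week 1. Their median standard error was 0.33 in both, against 0.15 for the abundant members, so that their values are less precise.

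Among the elongation factors, Eef1a1 carries aminoacyl-tRNA to the ribosome and is the most abundant member (NM_010106, GRCm38 chr9:78478453-78481724). Its level in saline was 1685, 2030, 2181 and 1883 CPM, in PPE week 1 it was 1858, 2025, 1866 and 1872 CPM, and in PPE week 2 it was 1065, 1341, 1101 and 1241 CPM. Every PPE week 2 library lay below every library of the other groups, which overlapped each other. The mean was 1945 ± 211 CPM (SD, n = 4) in saline, 1905 ± 79.8 in PPE week 1 and 1187 ± 128 in PPE week 2. Eef1a1 was 1.64-fold lower in PPE week 2 than in saline (log2 fold change -0.71, SE 0.10, adjusted p = 0.0036) and 1.61-fold lower than in PPE week 1 (-0.68, SE 0.10, adjusted p = 0.0014). Both calls held without any one library.

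The eEF1B subunits Eef1b2 and Eef1g belong to the complex that recharges eEF1A. Eef1b2 (NM_018796, chr1:63176831-63180486) stood at 130, 140, 185 and 151 CPM in saline, at 247, 200, 167 and 182 CPM in PPE week 1 and at 102, 143, 113 and 114 CPM in PPE week 2. Its PPE week 2 libraries were all below those of PPE week 1, while saline overlapped both. Eef1b2 was 1.69-fold lower in PPE week 2 than in PPE week 1 (log2 fold change -0.76, SE 0.16, adjusted p = 0.0088), and it differed from saline by 0.39 at week 1 (adjusted p = 0.14) and -0.36 at week 2 (adjusted p = 0.25).

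Eef1g (NM_026007, chr19:8967041-8978180) stood at 76.5, 69.6, 88.6 and 76.9 CPM in saline, at 82.2, 93.8, 66.3 and 78.4 CPM in PPE week 1 and at 43.2, 63.3, 46.7 and 40.7 CPM in PPE week 2. All 4 PPE week 2 libraries were below all others. Eef1g was 1.61-fold lower than in saline (-0.68, SE 0.17, adjusted p = 0.044) and 1.65-fold lower than in PPE week 1 (-0.73, SE 0.17, adjusted p = 0.019). The call against saline was lost when any library other than PPE week 2 replicate 2 was left out, with an adjusted p of 0.055 to 0.12, and also with libraries scaled by their counts without NR_046233 (adjusted p = 0.062). The call against PPE week 1 was lost on leaving out replicate 1 or 2 of PPE week 1 or replicate 3 of PPE week 2 (adjusted p = 0.055, 0.081 and 0.054).

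Eef2, the factor that moves the ribosome to the next codon, had the opposite sign (NM_007907, chr10:81176631-81182509). It stood at 560, 697, 652 and 551 CPM in saline, at 821, 753, 758 and 806 CPM in PPE week 1 and at 722, 815, 733 and 891 CPM in PPE week 2. All 8 PPE libraries were above all 4 saline libraries. The difference from saline missed the threshold at week 1 (log2 fold change 0.35, SE 0.11, adjusted p = 0.057) and at week 2 (0.36, SE 0.11, adjusted p = 0.088). DESeq2 (adjusted p = 0.0499), limma-voom (0.039) and the authors' deposited table (0.017) called it at week 1, as did the fits that left out saline replicate 2, or replicate 1, 3 or 4 of PPE week 2. Eef2 was also called at week 1 in the fit to the 8 libraries compared (adjusted p = 0.020). Scaling by counts without NR_046233 called it at week 1 (0.038) and at week 2 (0.048), and so did scaling by all counts (0.0085 and 0.00096).

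**Figure D2:**
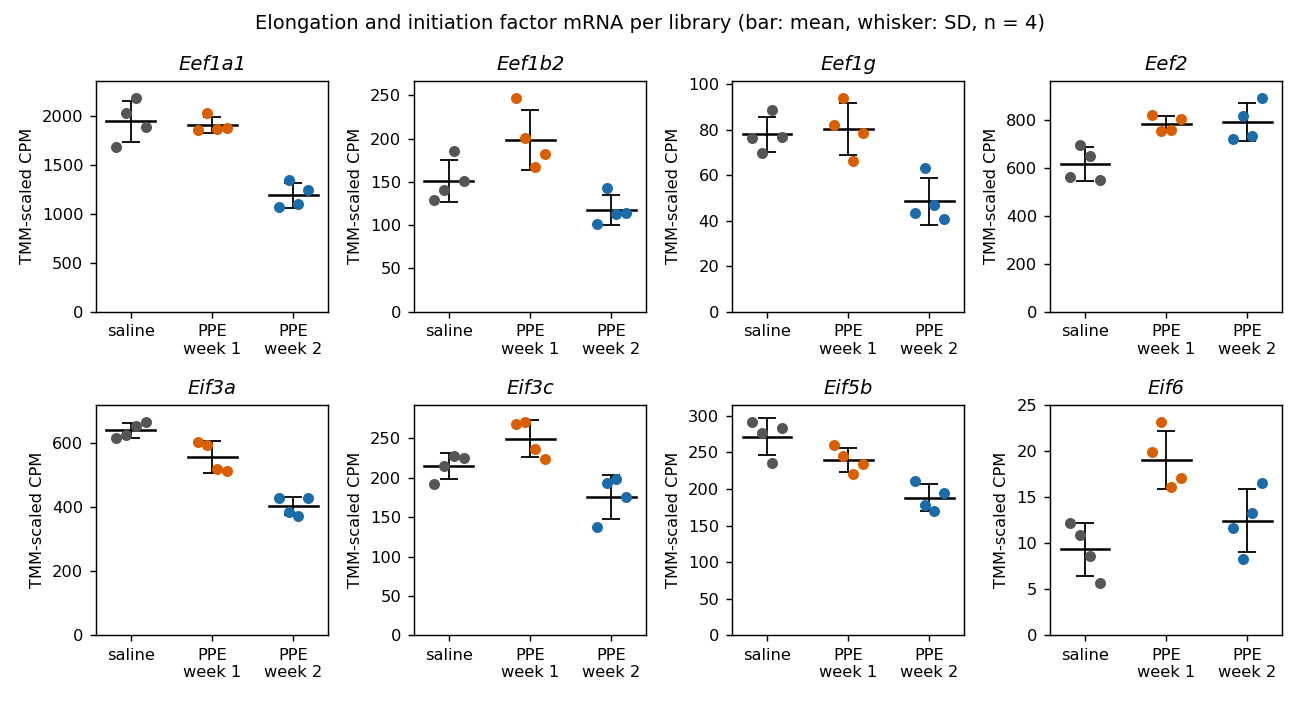
TMM-scaled CPM per library (vertical axes, from 0) of 8 elongation and initiation factors across the 3 groups (horizontal axes), 4 points per group, with a bar at the mean and a whisker of 1 SD. Eef1a1 in PPE week 2 spans 1065 to 1341 CPM, below every saline and PPE week 1 library, while Eef2 in the PPE groups starts at 722 CPM, above the highest saline library at 697 CPM.

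Eef1a2 is the second eEF1A gene, known from neurons and striated muscle (NM_007906, chr2:181141758-181157015). It stood at 1.22, 4.31, 0.783 and 1.42 CPM in saline, at 0, 1.99, 8.14 and 20.6 CPM in PPE week 1 and at 32.1, 19.2, 7.34 and 5.68 CPM in PPE week 2. The PPE week 2 libraries were all above the saline libraries, but they spread from 5.68 to 32.1 CPM, and PPE week 1 overlapped both other groups. The fitted log2 fold change was 2.01 (SE 1.15, adjusted p = 0.36) at week 1 and 3.07 (SE 1.18, adjusted p = 0.21) at week 2. The authors' deposited table called it at week 2, with a log2 fold change of 1.71 and an adjusted p of 0.0012.

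The genes whose level across the 12 libraries was most like that of Eef1a2 were Kif5a (Pearson r = 0.952 of log2 values), Slc7a14 (0.922), Cplx1 (0.917), Tubb4a (0.914) and the noradrenaline transporter Slc6a2 (0.913), as a description over libraries that share groups. The 8 neuron and Schwann cell markers summed to 18.3 to 55.3 CPM in saline, 32.8 to 157 CPM in PPE week 1 and 66.1 to 384 CPM in PPE week 2, with 1 of the 5 tested called higher at week 2. PPE week 2 replicate 1 had the highest value of both that sum and Eef1a2. The 8 skeletal muscle markers summed to at most 25.99 CPM in any library, with Acta1 at 0. The part of nerve tissue in the Eef1a2 values was not tested.

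**Figure D3:**
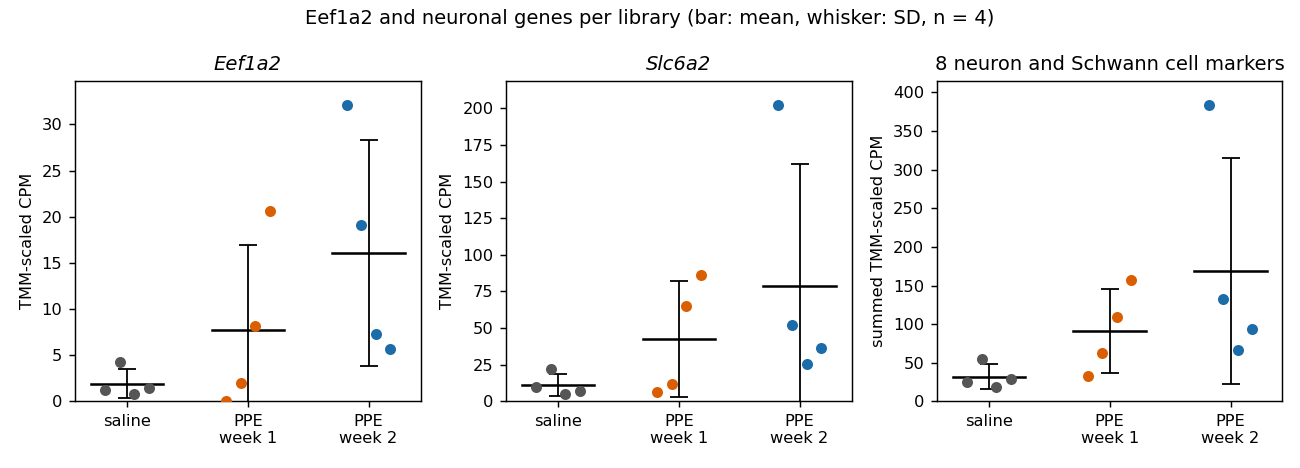
TMM-scaled CPM per library (vertical axes, from 0) of Eef1a2, of Slc6a2 and of the sum of 8 neuron and Schwann cell markers in the 3 groups (horizontal axes), 4 points per group, with a bar at the mean and a whisker of 1 SD that is cut off where it would run below 0. PPE week 2 replicate 1 is the highest library in all 3 panels, at 32.1, 202 and 384 CPM.

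The other elongation members gave no call. Eif5a2, an eIF5A gene that helps the ribosome through difficult peptide bonds, had log2 fold changes of -0.35, -0.24 and 0.11 in the order of the 3 comparisons above. Eef1d (eEF1B delta) was counted at most at 2.89 CPM in any library and had 8 accessions, of which 6 had a count of 0. The 6 modifiers, methyltransferases of eEF1A and eEF2, had medians of 0.18, -0.24 and -0.52, with Eef2kmt between -0.16 and -0.05 in all 3 comparisons. Eef1akmt2 had values of 0.19, -0.33 and -0.52, with an SE of 0.42 in each.

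Of the 12 eIF3 subunits, 1 was called lower in PPE week 2 against saline (8.33%, beside 1.35% of all features). Against PPE week 1, 2 were called lower (16.7%, beside 2.82%). The medians were 0.01, -0.29 and -0.29 in the 3 comparisons. Eif3a is the largest subunit and a scaffold of the complex (NM_010123, chr19:60761116-60790693). It stood at 615, 626, 652 and 666 CPM in saline, at 604, 595, 517 and 511 CPM in PPE week 1 and at 428, 386, 374 and 427 CPM in PPE week 2. The 3 groups did not overlap, with saline highest and PPE week 2 lowest. Eif3a was 1.58-fold lower in PPE week 2 than in saline (log2 fold change -0.66, SE 0.10, adjusted p = 0.0041) and 1.38-fold lower than in PPE week 1 (-0.46, SE 0.10, adjusted p = 0.012). The second call was lost without PPE week 1 replicate 2 (adjusted p = 0.052), and the week 1 difference from saline was not called (-0.20, adjusted p = 0.27).

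Eif3c, another core subunit (NM_146200, chr7:126546911-126566366), stood at 192, 214, 228 and 225 CPM in saline, at 268, 271, 237 and 223 CPM in PPE week 1 and at 137, 193, 199 and 175 CPM in PPE week 2. PPE week 1 and PPE week 2 did not overlap, and saline overlapped both. Eif3c was 1.42-fold lower in PPE week 2 than in PPE week 1 (-0.51, SE 0.13, adjusted p = 0.030), a call lost on leaving out replicate 1, 2 or 3 of PPE week 1 or replicate 1 of PPE week 2 (adjusted p of 0.054 to 0.11). Against saline it gave 0.22 at week 1 and -0.29 at week 2, neither of them called.

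At week 1, 5 of the 12 eIF3 subunits lay below saline, beside 49.8% of all features. Later, in PPE week 2, 8 subunits were below saline, beside 46.3% of all features. Relative to PPE week 1, 11 of the 12 were lower in PPE week 2, beside 48.7%. Whether subunits differed from each other was not tested. The subunits named next were chosen after their values were seen. Eif3b gave 0.35, 0.12 and -0.23, and Eif3d gave 0.38, 0.21 and -0.17, in the same order of comparisons, with no call. Eif3f gave 0.21, -0.30 and -0.51, and it was called in PPE week 2 against PPE week 1 without PPE week 2 replicate 4 (adjusted p = 0.0072), the library in which it stood at 101 CPM against 55.9 to 69.9 CPM in the other 3. Among the 11 subunits with 1 accession, levels ran from 2.71 to 103 CPM per kb, although the proteins form 1 complex.

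Of the 9 scanning and joining factors, 8 lay below 0 in PPE week 2 against saline and all 9 in PPE week 2 against PPE week 1, with 1 call and 0 calls. Of all features, 46.3% and 48.7% lay below 0, and 1.35% and 2.82% were called lower. Their medians were -0.18, -0.53 and -0.40, and their summed level was 565 ± 7.04 CPM (SD, n = 4) in saline with all PPE week 1 libraries at 488 to 537 CPM and all PPE week 2 libraries at 359 to 418 CPM. Eif5b, the GTPase that joins the ribosomal subunits (NM_198303, chr1:37998010-38055579), stood at 292, 276, 236 and 283 CPM in saline, at 260, 245, 220 and 234 CPM in PPE week 1 and at 211, 178, 170 and 194 CPM in PPE week 2. Its PPE week 2 libraries were all below the rest, and saline and PPE week 1 overlapped.

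Eif5b was 1.44-fold lower in PPE week 2 than in saline (-0.53, SE 0.12, adjusted p = 0.023), a call lost on leaving out replicate 1, 2 or 4 of saline or replicate 2 of PPE week 2 (adjusted p of 0.054 to 0.067). Against PPE week 1 it gave -0.35 (adjusted p = 0.084). Eif1, which guards start codon choice, gave -0.27, -0.40 and -0.12 without a call. Eif1a, which also acts in scanning and was chosen here after its values were seen, gave -0.77 against saline (adjusted p = 0.055) and -0.70 against PPE week 1 (adjusted p = 0.051) in PPE week 2, and DESeq2 called both (0.018 and 0.023). Eif1a and Eif1ax encode near-identical proteins, so their counts are uncertain.

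Eif6 is the only scanning and joining member above 0 in PPE week 2 against saline. It keeps the large ribosomal subunit from joining too early (NM_010579, chr2:155819837-155826925). Its level was 12.2, 10.9, 8.61 and 5.68 CPM in saline, 19.9, 23.2, 16.1 and 17.0 CPM in PPE week 1 and 11.6, 8.33, 13.3 and 16.5 CPM in PPE week 2. All PPE week 1 libraries were above all saline libraries, and PPE week 2 overlapped both. The week 1 difference was 2.04-fold and missed the threshold (log2 fold change 1.03, SE 0.32, adjusted p = 0.057). The authors' deposited table (adjusted p = 0.0094) and DESeq2 (0.021) called it, while limma-voom did not. The edgeR test also called it in the fit to the 8 libraries compared (adjusted p = 0.025), with halved counts (0.049) and with scaling by all counts (0.0195). Among the fits that left out 1 library, those without replicate 1 or 2 of PPE week 2 called it (0.049 and 0.045). The others did not, with an adjusted p of up to 0.19.

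None of the 8 eIF2 and eIF2B subunits was called by edgeR, and their medians were 0.00, -0.33 and -0.10. At an unadjusted p under 0.05, 0, 2 and 1 were lower and 0 higher in the 3 comparisons. Of all features, 10.1, 7.72 and 9.87% were lower and 11.6, 8.84 and 10.6% higher by that measure. DESeq2 called Eif2s2 lower between the PPE groups (adjusted p = 0.048), beside 5.10% of all features. Eif2s2 is named here after its values were seen. Eif2s1 is the alpha subunit whose phosphorylation slows initiation, and it gave -0.14, -0.65 and -0.51 with adjusted p of 0.85, 0.24 and 0.32. Eif2b5, the catalytic subunit of the exchange factor, gave 0.03, -0.38 and -0.41. The gamma subunit has an X-linked gene, Eif2s3x, and a Y-linked gene, Eif2s3y, which stood at 18.8 and 18.6 CPM per kb over all 12 libraries. Eif2s3x ranged from 53.6 to 88.8 CPM and Eif2s3y from 11.5 to 56.2 CPM, the lowest in PPE week 2 replicate 1. The copies are alike in sequence, so reads could be split between them.

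The eIF4F subunits and cofactors gave no edgeR call among 9 members, with medians of -0.22, 0.00 and 0.00. At an unadjusted p under 0.05, 1 was lower in PPE week 2 against saline, beside 7.72% of all features. Eif4b, which stimulates the helicase, gave 0.02, -0.13 and -0.14. Eif4g2, a scaffold that lacks the part that binds eIF4E, gave -0.35, -0.61 and -0.26, with an adjusted p of 0.11 in PPE week 2 against saline. Eif4a2, the eIF4F helicase gene that could be followed, gave -0.22, -0.24 and -0.01 and has 4 accessions.

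The eIF4E inhibitors sequester the cap-binding protein. Eif4ebp2 (NM_010124, chr10:61428491-61452790) stood at 53.8, 44.3, 48.5 and 53.1 CPM in saline, at 52.9, 49.3, 43.2 and 47.5 CPM in PPE week 1 and at 64.5, 54.8, 71.5 and 75.6 CPM in PPE week 2. All PPE week 2 libraries were above all others. The differences missed the threshold against saline (log2 fold change 0.41, SE 0.16, adjusted p = 0.19) and against PPE week 1 (0.47, SE 0.16, adjusted p = 0.094), and DESeq2 called the second (0.040). Eif4ebp1 gave 0.35, 0.28 and -0.07, with PPE week 2 replicate 2 at 9.001 CPM and the other 3 PPE week 2 libraries at 25.1 to 36.6 CPM.

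The members' summed level was 5479 ± 316 CPM (SD, n = 4) in saline, 5598 ± 163 in PPE week 1 and 4319 ± 256 in PPE week 2. Every PPE week 2 library lay below every other library, and without Eef1a1 the other 54 members showed the same separation, at 3014 to 3286 CPM in PPE week 2 against at least 3396 CPM elsewhere. The direction depended on the denominator. As a share of all counts other than NR_046233, the members took 0.749 to 0.813% in saline, 0.802 to 0.838% in PPE week 1 and 0.572 to 0.693% in PPE week 2. As a share of all counts they took 0.396 to 0.499%, 0.525 to 0.645% and 0.458 to 0.558%, so that PPE week 2 overlapped both other groups.

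**Figure D4:**
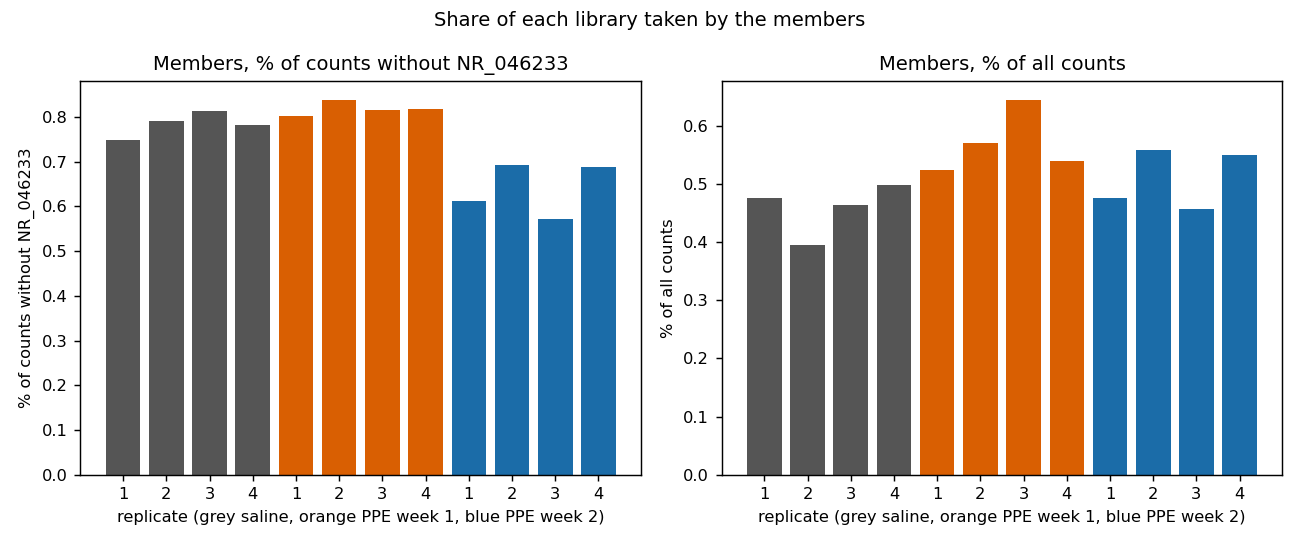
Percent of each library's counts taken by the 55 members, over counts without the ribosomal RNA precursor NR_046233 and over all counts (vertical axes, from 0), with 1 bar per library (horizontal axes, replicates 1 to 4 of each group). Without the precursor every PPE week 2 bar is at or below 0.693% and every other bar at or above 0.749%, and over all counts PPE week 2 overlaps both other groups.

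The calls changed with this choice too. Scaled by total counts alone, the median of all features moved to 0.28, 0.54 and 0.23 in the 3 comparisons, and the calls over all features split into 1607 higher and 27 lower in PPE week 2 against saline, where TMM gave 166 and 172. Under that scaling 5, 5 and 1 members were called higher and 0 lower in each, with members' medians of 0.26, 0.20 and -0.04, each below the median of all features under the same scaling. The members called higher made up 9.09, 9.09 and 1.82% of the 55, beside 8.09, 12.6 and 5.34% of all features. With the precursor's share of each library as a covariate, 0 members were called in any comparison, but few features were called at all: 23 higher and 59 lower of 12756 at week 1, 0 and 0 in PPE week 2 against saline, and 54 and 15 between the PPE groups. The count of 0 members under that setting is therefore near the background. Eef1a1 gave -0.56 against saline (adjusted p = 0.76) and -0.61 against PPE week 1 (adjusted p = 0.067). The share did not overlap between saline (36.2 to 49.9%) and either PPE group (19.5 to 34.6%). All 4 calls against saline and all 5 between the PPE groups were lost under both settings.

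Cell type markers moved as well, beside the smooth muscle markers given above. The 6 proliferation markers summed to 266 to 316 CPM in saline, 403 to 448 CPM in PPE week 1 and 69.6 to 276 CPM in PPE week 2, with 1 of 5 tested called lower in PPE week 2 against PPE week 1. The 7 macrophage markers summed to 1781 to 2172, 3199 to 4227 and 1035 to 2597 CPM, with 2 called higher at week 1 and 2 lower between the PPE groups. The 6 T and NK cell markers summed to 14.6 to 33.4, 101 to 142 and 20.6 to 120 CPM, with 2 of 5 tested called higher at week 1. Of the 6 fibroblast markers, 4 were called lower at week 1, 3 lower in PPE week 2 against saline and 1 higher between the PPE groups, while their sum, most of it Col1a1, was 21241 to 27938, 28045 to 35794 and 20773 to 31627 CPM. PPE week 2 replicates 1 and 3 had the lowest proliferation and macrophage sums and also the lowest summed member level, at 4079 and 4118 CPM against 4553 and 4527 CPM in replicates 2 and 4. This split was chosen after the values were seen. Within PPE week 2 the T and NK cell and neutrophil sums split the same way, and the fibroblast and adipocyte sums the opposite way. The other marker lists did neither. Macrophage sums in replicates 2 and 4, at 2310 and 2597 CPM, were above every saline library. The summed member levels of these replicates were below every saline library, the lowest of which was at 5081 CPM. The part of these cells in the members' values was not tested.

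The authors' deposited table for week 1 listed all 55 members and called 2 higher (Eef2 and Eif6) and 0 lower, with a median log2 fold change of -0.04. Their table for week 2 listed 51 members and called Eef1a2 higher and Eef1a1, Eif3a, Eef1g and Eif5b lower, with a median of -0.24. The lower calls were the same 4 genes as in the edgeR fit.

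Lists of genes that act beside the factors gave 0 to 2 calls per comparison, apart from the ribosomal proteins. Of all features, 3.98% were called higher and 3.91% lower at week 1. The shares were 1.3% and 1.35% in PPE week 2 against saline, and 3.77% and 2.82% between the PPE groups. A list of 7 genes held eIF2 alpha kinases, the kinase regulator Impact and subunits of the eIF2 phosphatase. Of these, Eif2ak2, a kinase switched on by double-stranded RNA and induced by interferon, rose at week 1 from 104 ± 26.03 to 209 ± 42.2 CPM (SD, n = 4). Its log2 fold change was 1.00 (adjusted p = 0.035), and it was lower again in PPE week 2 than in PPE week 1 (-1.04, adjusted p = 0.032). Ppp1r15b, a phosphatase subunit, was lower in PPE week 2 than in PPE week 1 (-0.46, adjusted p = 0.040). These 2 lower calls made up 28.6% of the 7 genes, beside 2.82% of all features. Of the 8 targets of the integrated stress response tested, 0 were called in any comparison, while an unadjusted p under 0.05 was reached by 1 lower gene at week 1, by none at week 2 and by 1 higher gene between the PPE groups.

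Pabpc1, the poly(A)-binding protein that bridges the mRNA's ends through eIF4G, fell to 173 ± 27.3 CPM in PPE week 2 (SD, n = 4) from 244 ± 9.77 CPM in saline (log2 fold change -0.50, adjusted p = 0.047) and 256 ± 24.1 CPM in PPE week 1 (-0.57, adjusted p = 0.015). Etf1, the release factor, was lower in PPE week 2 than in PPE week 1 (-0.58, adjusted p = 0.035). The valyl-tRNA synthetase Vars rose at week 1 (0.79, adjusted p = 0.016). Pabpc1 was the only gene called of 4 poly(A) binding genes tested, and Etf1 the only one of 8 termination and recycling genes. Of 22 genes listed for the synthetases and their complex, 15 were tested, among them Aimp1, a complex protein that is no synthetase. All 15 lay below 0 in PPE week 2 against PPE week 1, beside 48.7% of all features. In that comparison 0 were called and 3 were lower at an unadjusted p under 0.05, beside 9.87% of all features. None of the 6 mTORC1 and MNK genes, 2 hypusination enzymes, 6 diphthamide genes or 7 mitochondrial translation factors tested was called by edgeR. At an unadjusted p under 0.05 the mTORC1 and MNK list had 1 gene in each direction in PPE week 2 against saline and 2 higher and 1 lower between the PPE groups, and the mitochondrial list had 1 lower in each comparison with saline. The hypusination list had 1 higher at week 1 and the diphthamide list 0 in any comparison. Of all features, 11.6% were higher and 10.1% lower at week 1 by that unadjusted p. The shares were 8.84% and 7.72% in PPE week 2 against saline, and 10.6% and 9.87% between the PPE groups.

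Of 67 cytosolic ribosomal protein genes tested, 7 were called higher at week 1 and 0 lower, beside 3.98% and 3.91% of all features. In PPE week 2 against saline 2 were called higher and 15 lower (22.4%, beside 1.35% of all features), with a median of -0.72. Between the PPE groups 0 were called higher and 23 lower (34.3%, beside 2.82%), with a median of -0.73. Ribosomal protein genes have many processed copies in the genome, so single values are uncertain. The genes most like Eef1a1 across the 12 libraries were Pdia3 (Pearson r = 0.981 of log2 values), Rpl5 (0.961), Calm2 (0.960), Rps6 (0.960) and Rps13 (0.956), as a description over libraries that share groups. Rps6, a small-subunit protein, fell from 178 ± 12.6 CPM in saline to 88.4 ± 9.18 CPM in PPE week 2 (log2 fold change -1.01, adjusted p = 0.0034), and Eef1a1 fell by 0.71 on the log2 scale. Rps6 was taken from that list, chosen for likeness to Eef1a1 in these libraries, so its fall is not separate evidence. The 2 ribosomal protein genes called higher in PPE week 2 against saline were Rpl29 (0.93, adjusted p = 0.0041) and Rpl8 (0.87, adjusted p = 0.0041).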

How the data were processed

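RNA from the aortas of 12 mice was sequenced after TRIzol extraction and library synthesis with a TruSeq v2 kit from 500 ng of total RNA, per the labels' protocols. The authors deposited a raw count for each RefSeq accession in each library. The 2 other deposited tables give their comparisons, with log2 fold changes, p-values and adjusted p-values, per the file headers. Tools named in the submitters' processing notes are bcl2fastq and DESeq2, and the build is mm10. No aligner, counting tool or strand setting is stated in those sources, so reads of overlapping or antisense genes could not be told apart. RefSeq's GRCm38.p6 table named 34424 of 34755 accessions and GENCODE a further 192.

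Counts were tested with edgeR 4.0.16 in R 4.3.3: filterByExpr (12756 accessions), TMM, and a robust quasi-likelihood fit to all 12 libraries with 1 mean per group, two-sided. P-values were adjusted by Benjamini-Hochberg across every accession tested, with calls at an adjusted p under 0.05. The biological coefficient of variation was 0.512. DESeq2 1.42.0, limma-voom (limma 3.58.1), other scalings, halved counts, counts summed over accessions, a covariate, a replicate block and leaving out each library were alternatives. Among counts of 2 to 20, 66.0 to 75.6% per library were even, and halved counts were tried for that reason. Replicates differed beyond sampling noise (chi-square per feature 16.0 to 96.2), so none was merged.

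The members and gene lists were chosen with earlier results of these data known. Genes named are the members called, the 2 most abundant of each role and a short list of well-known factors. Exceptions are marked in the text.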

Additional observations from a re-analysis of the deposited data

Results flagged for a closer look

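Among 72 groups of 4 libraries (22 named members with their levels, and library measures), 3 had a library whose gap to the nearest other library took up more than 0.829 of the group's range, where chance gives about 1 in 20 groups. Eef1a1 stood at 2025 CPM in PPE week 1 replicate 2, above the other 3 libraries of that group at 1858 to 1872 CPM. Eef2kmt stood at 13.4 CPM in PPE week 1 replicate 2, below the others at 17.4 to 18.03 CPM. Eif4b stood at 184.6 CPM in saline replicate 1, below the others at 199 to 202 CPM. Both Eef1a1 calls held without that library, and Eef2kmt and Eif4b had no call.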

How the results depend on the processing

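With TMM, DESeq2, DESeq2's size factors in edgeR, limma-voom, summed accessions, halved counts or no filter, the members called lower numbered 4 to 5 for PPE week 2 against saline, and 5 to 7 between the PPE groups. Of all features, 0.95 to 2.69% and 1.8 to 5.1% were called lower in those fits. Members called higher in PPE week 1 against saline, 0 in the edgeR fit, numbered 5 with scaling by library size alone, 1 with library size without NR_046233, 2 with DESeq2, 1 with limma-voom, 2 with only the 8 libraries compared and 1 with halved counts, where 8.09, 3.90, 6.55, 3.37, 9.55 and 4.93% of all features were called higher. Members called higher in PPE week 2 against saline numbered 5 with library size alone (12.6% of all features) and 1 without NR_046233 (1.58%), where 3 were lower because Eef1g was lost, and between the PPE groups 1 with library size alone and 1 with DESeq2 (5.34 and 6.37% of all features). Members called lower numbered 0 in each PPE week 2 comparison with library size alone (0.212 and 0.588% of all features) and with the NR_046233 share as covariate (0 and 0.118%). They numbered 2 and 3 with only the 8 libraries compared (0.351 and 1.51% of all features). The 2 calls lost against saline in that last fit were Eef1g and Eif5b, and those lost between the PPE groups were Eif3a and Eif3c. The members' medians were 0.26, 0.20 and -0.0445 with library size alone, and 0.0312 and -0.10 against saline with the covariate. Leaving out 1 library gave 0 to 2 members higher at week 1, 2 to 3 lower in PPE week 2 against saline, 0 to 1 higher and 2 to 7 lower between the PPE groups, and medians of -0.0310 to 0.00827, -0.31 to -0.21 and -0.31 to -0.22. These fits tested 13190 to 13462 features. Of those, 156 to 788 were called higher at week 1 and 73 to 198 lower in PPE week 2 against saline. Between the PPE groups 207 to 642 were higher and 112 to 607 lower. The causes of these shifts were not tested.

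Signs of uncalled values turned as follows. With library size alone, log2 fold changes at week 1 were 0.26 for Eef1a1, 0.0703 for Eif3a, 0.0840 for Eif5b, 0.25 for Eif2s3x, 0.20 for Eif4ebp2, 0.24 for Eef2kmt, 0.0104 for Eif1, 0.14 for Eif2s1 and 0.0634 for Eif4a2. In PPE week 2 against saline they were 0.13 for Eef1b2, 0.20 for Eif3c, 0.20 for Eif2s3x, 0.13 for Eif2b5, 0.37 for Eif4b, 0.33 for Eef2kmt, 0.19 for Eef1akmt2, 0.0902 for Eif1, 0.25 for Eif4a2 and 0.20 for Eif5a2. Between the PPE groups they were 0.11 for Eif4ebp1, 0.0751 for Eif4b, 0.0946 for Eef2kmt, 0.0797 for Eif1 and 0.18 for Eif4a2. With the covariate they were 0.0507 for Eef1a1 and 0.0528 for Eef2kmt at week 1, 0.0339 for Eef2kmt in PPE week 2 against saline, and -0.37 for Eif5a2 and -0.27 for Eif2s3y between the PPE groups. At week 1, Eef1a1 was 0.00455 with library size without NR_046233, and Eif4b was -0.00151 with DESeq2's size factors and -0.00129 with DESeq2. Between the PPE groups, Eef2 was -0.0166 without the filter and Eif2s3y -0.0414 with limma-voom.

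Leaving out 1 library, values that changed sign ranged at week 1 from -0.0895 to 0.0342 (Eef1a1), -0.0438 to 0.13 (Eef1g), -0.12 to 0.0756 (Eif2s3x), -0.0918 to 0.17 (Eif2b5), -0.10 to 0.00175 (Eif4ebp2), -0.0345 to 0.0414 (Eif4b), -0.14 to 0.0609 (Eef2kmt), -0.0699 to 0.44 (Eef1akmt2) and -0.26 to 0.0481 (Eif2s1). In PPE week 2 against saline Eif5a2 ranged from -0.43 to 0.0673. Between the PPE groups the ranges were -0.32 to 0.21 (Eif4ebp1), -0.0592 to 0.0462 (Eef2), -0.11 to 0.0857 (Eif4a2), -0.17 to 0.26 (Eif5a2) and -0.12 to 0.31 (Eif2s3y).

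Replicates share only a number across the groups, with correlations of their deviations from -0.09 to 0.04 for the same number. With a replicate block, 0 members were called at week 1, 5 were lower between the PPE groups and 3 in PPE week 2 against saline (Eef1g was lost, adjusted p = 0.063), with medians of 0.0025, -0.28 and -0.27. Of all features, that fit called 3.3% higher and 3.5% lower at week 1. It called 2.6% lower between the PPE groups and 0.89% lower in PPE week 2 against saline. Members near 1 CPM are limited by depth, with an SE above 1 on the log2 scale for Eif4g3, Eef1d and Eef1akmt4.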
